A study of Mus musculus with 14 samples.

Results

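The cation-chloride cotransporters and their kinases were described in sorted hippocampal cells of mice with and without pilocarpine seizures, by 8 genes named by symbol: the cotransporter genes Slc12a2, Slc12a4, Slc12a5, Slc12a7 and Slc12a9 and the kinase genes Stk39, Oxsr1 and Wnk1. They were found by Ensembl identifier among the 43346 genes of the count table, and all 8 passed the filter on low counts. The genes were chosen by name with measured values of these libraries known, which may include their levels and the differences between all groups, so the values of these genes in every comparison are given as a description. The cells were live GFP-positive cells, labelled as adult-born granule cells, sorted at day 14 from the hippocampus of C57BL/6 wild-type mice. About 800 to 1000 cells went into a library, from which cDNA of polyadenylated RNA was made by the SMART-Seq v4 method. DREADD Pilo (3 libraries) held cells with a DREADD, a designer receptor that clozapine-N-oxide (CNO) activates, from mice given pilocarpine and CNO, labelled as having seizures and being silenced; the library names of that group contain hm4Di, the inhibitory form of the receptor. DREADD Sham (4 libraries) held DREADD cells from sham mice given CNO. CAG-GFP Pilo (4 libraries) held cells with GFP from the CAG promoter from mice given pilocarpine and CNO, labelled as having seizures, and CAG-GFP Sham (3 libraries) held such cells from sham mice given CNO. All groups thus received CNO. Pilocarpine, which activates muscarinic receptors and provokes status epilepticus, was given at 300 mg/kg after scopolamine methyl nitrate and terbutaline, and status epilepticus was stopped after 3 hours with diazepam. The sources used here do not state the animals' age, whether a library pooled animals or whether libraries came from separate animals, so SDs and p-values cover the spread among these libraries alone, which may be technical.

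Cation-chloride cotransporters move chloride across the cell membrane together with potassium, and in some members with sodium. Slc12a2 encodes NKCC1, which brings chloride into cells, while Slc12a5 encodes KCC2, the neuronal transporter that extrudes it. In newborn granule cells NKCC1 is known to dominate, so that GABA depolarises them, and KCC2 rises as they mature. WNK kinases activate the kinases SPAK (Stk39) and OSR1 (Oxsr1), which phosphorylate the transporters, switching NKCC1 on and the potassium-chloride cotransporters off. NKCC1 is also known in oligodendrocyte precursors and in the choroid plexus.

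Slc12a5 (ENSMUSG00000017740.12, chromosome 2, 164960802 to 164999731, plus strand; GENCODE M21, GRCm38) codes for KCC2 and is known for an upstream and a downstream first exon, which give the KCC2a and KCC2b proteins. The deposited counts are per gene and do not separate them. The 250 bases before each of the 2 start sites in RefSeq (GRCm38.p6) are shown because Slc12a5 is the neuronal member of the set. Which start is used in these cells cannot be read from the counts. Capitals mark matches on either strand to 4 motifs, which do not overlap each other in these windows: the Egr site GCGNGGGCG, the GC box GGGCGG, the CCAAT box and the E-box CACGTG. The first 3 were searched first, and the E-box was added after its letters had been seen in the downstream window, so its match there was chosen.
Slc12a5 upstream start, chr2:164960596-164960845, plus strand: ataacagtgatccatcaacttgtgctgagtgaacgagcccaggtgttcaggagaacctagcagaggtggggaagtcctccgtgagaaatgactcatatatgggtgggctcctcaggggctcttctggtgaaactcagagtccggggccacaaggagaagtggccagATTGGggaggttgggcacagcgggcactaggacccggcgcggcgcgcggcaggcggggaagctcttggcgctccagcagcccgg
Slc12a5 downstream start, chr2:164967738-164967987, plus strand: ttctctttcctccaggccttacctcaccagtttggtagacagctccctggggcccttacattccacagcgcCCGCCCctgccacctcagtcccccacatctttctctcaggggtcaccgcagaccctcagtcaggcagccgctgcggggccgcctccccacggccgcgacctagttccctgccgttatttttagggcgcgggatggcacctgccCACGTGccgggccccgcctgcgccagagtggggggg
The upstream window held 1 CCAAT box, on the minus strand 84 bases before the start, and the downstream window held 1 GC box, on the minus strand 179 bases before the start, and 1 E-box 36 bases before it. Neither held an Egr site. Among all 32851 promoter windows of that length searched, 4.7% held an Egr site, 32.7% a GC box, 33.8% a CCAAT box and 6.02% an E-box. Windows were found for 7 of the 8 genes, 9 windows in all, those of Slc12a7 overlapping each other: 0 of the 7 genes had an Egr site, 7 a GC box, 2 a CCAAT box (Slc12a5 and Slc12a9) and 3 an E-box (Slc12a5, Slc12a7 and Slc12a9). These matches describe the letters only.

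Library totals ran from 10613291 to 38614639 counts, with 9372 genes detected in CAG-GFP Pilo 4 and 14512 to 20863 in the others. Pseudogenes took 4.33% to 8.12% of counts in DREADD Pilo 1 to 3, DREADD Sham 3 and 4 and CAG-GFP Pilo 1 and 2, here called library set 2, and 0.117% to 0.2% in DREADD Sham 1 and 2, CAG-GFP Pilo 3 and 4 and CAG-GFP Sham 1 to 3, here called set 1. Each comparison between groups could therefore be refitted within 1 set only, and the interaction within neither. Granule cell markers did not lead the libraries. The 17 immature granule cell and neuroblast markers summed to 27.1 to 801 CPM (the depth-scaled count, here after TMM scaling) in DREADD Pilo, 1180 to 2828 CPM in DREADD Sham, 881 to 1779 CPM in CAG-GFP Pilo and 506 to 563 CPM in CAG-GFP Sham. Prox1 and Dcx, which define the lineage, had no count in DREADD Pilo 3 and CAG-GFP Pilo 4, and Dcx had none in CAG-GFP Sham 1. The 12 oligodendrocyte markers summed to 410.2 to 43130 CPM in DREADD Pilo, 19070 to 40750 CPM in DREADD Sham, 1337 to 38190 CPM in CAG-GFP Pilo and 563 to 702 CPM in CAG-GFP Sham. The 12 ependymal and choroid plexus markers summed to 165400 CPM in DREADD Pilo 3 and to 13960 CPM or less elsewhere, and the 12 astrocyte markers to 6406 CPM or less in the other groups and 27760 to 29220 CPM in CAG-GFP Sham. The 12 microglia markers summed to 182.6 to 30270 CPM in DREADD Pilo and 605.7 to 12270 CPM in DREADD Sham. In CAG-GFP Pilo they summed to 4575 to 11030 CPM, and in CAG-GFP Sham to 3297 to 3553 CPM. In such bulk samples fewer cells of a type and less RNA per cell cannot be told apart.

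Slc12a2 (ENSMUSG00000024597.10, chromosome 18, 57878678 to 57946821, plus strand), the chloride importer NKCC1, had its highest levels in DREADD Pilo and its lowest in CAG-GFP Sham. It stood at 140.5, 394 and 919.9 CPM in DREADD Pilo 1 to 3 and at 109, 98.7, 251 and 113 CPM in DREADD Sham 1 to 4. In CAG-GFP Pilo 1 to 4 it stood at 63.2, 111, 31.5 and 56.0 CPM, and in CAG-GFP Sham 1 to 3 at 8.56, 16.2 and 26.4 CPM. Every CAG-GFP Sham library thus lay below every other library, and every DREADD Pilo library lay above every CAG-GFP Pilo library, while DREADD Pilo and DREADD Sham overlapped. The group means were 485 ± 398 CPM in DREADD Pilo, 143 ± 72.5 CPM in DREADD Sham, 65.5 ± 33.4 CPM in CAG-GFP Pilo and 17.1 ± 8.96 CPM in CAG-GFP Sham (SDs over 3, 4, 4 and 3 libraries). Without DREADD Pilo 3 the DREADD Pilo mean was 267 CPM.

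The fitted log2 fold change of Slc12a2 was 1.94 ± 0.72 between CAG-GFP Pilo and CAG-GFP Sham and 3.07 ± 0.76 between DREADD Sham and CAG-GFP Sham (SE). Both comparisons share the CAG-GFP Sham libraries. It was 2.89 ± 0.69 between DREADD Pilo and CAG-GFP Pilo and 1.76 ± 0.67 between DREADD Pilo and DREADD Sham (SE). Within library set 1 the first pair of values was 1.34 ± 0.65 and 2.58 ± 0.67 (SE). Within set 2 the second pair was 2.50 ± 0.92 and 1.42 ± 0.87 (SE). All kept the sign of the fit over all libraries, but each comparison could be refitted in 1 set only. Without DREADD Pilo 3 the value between DREADD Pilo and DREADD Sham was 0.88, and that between DREADD Pilo and CAG-GFP Pilo was 2.02. Libraries low in oligodendrocyte markers were mostly low in Slc12a2: CAG-GFP Pilo 3 and 4 had 1337 and 4306 CPM of them with 31.5 and 56.0 CPM of Slc12a2, and CAG-GFP Sham had 563 to 702 CPM of them with 8.56 to 26.4 CPM of Slc12a2. In the 8 libraries with at least 19070 CPM of these markers Slc12a2 stood at 63.2 to 394 CPM, without following the markers throughout: CAG-GFP Pilo 1 and 2 had 36090 and 38190 CPM of them with 63.2 and 111 CPM of Slc12a2, and DREADD Pilo 1 had 19120 CPM of them with 140.5 CPM. DREADD Pilo 3 stood apart, with 919.9 CPM of Slc12a2 and 410.2 CPM of oligodendrocyte markers. All 12 choroid plexus and ependymal markers were detected in it, but also in DREADD Sham 1 and 2 and CAG-GFP Pilo 3. Those libraries had 109, 98.7 and 31.5 CPM of Slc12a2. Of the 12 oligodendrocyte markers, Gjb1 was at 0 in CAG-GFP Sham 1 and 3, Aspa was at 0 in CAG-GFP Pilo 4, and no marker was at 0 in the DREADD libraries. Endothelial markers also moved with Slc12a2 in part. The 12 of them summed to 574, 2012 and 1004 CPM in DREADD Pilo 3, DREADD Pilo 2 and DREADD Sham 3, which were highest in Slc12a2. In CAG-GFP Sham they summed to 16.0 to 62.4 CPM, with 6 to 8 at 0. DREADD Sham 2 went the other way, with 39.8 CPM of them, 7 at 0, and 98.7 CPM of Slc12a2. The 8 oligodendrocyte precursor markers went with Slc12a2 only in part. They summed to 312 to 382 CPM in CAG-GFP Sham, the group lowest in Slc12a2. But they summed to 59.2 CPM in DREADD Pilo 3, the library highest in Slc12a2. CAG-GFP Pilo 4 had 1088 CPM of them with 56.0 CPM of Slc12a2. The part of any of these cell types in the Slc12a2 level was not tested.

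**Figure D1:**
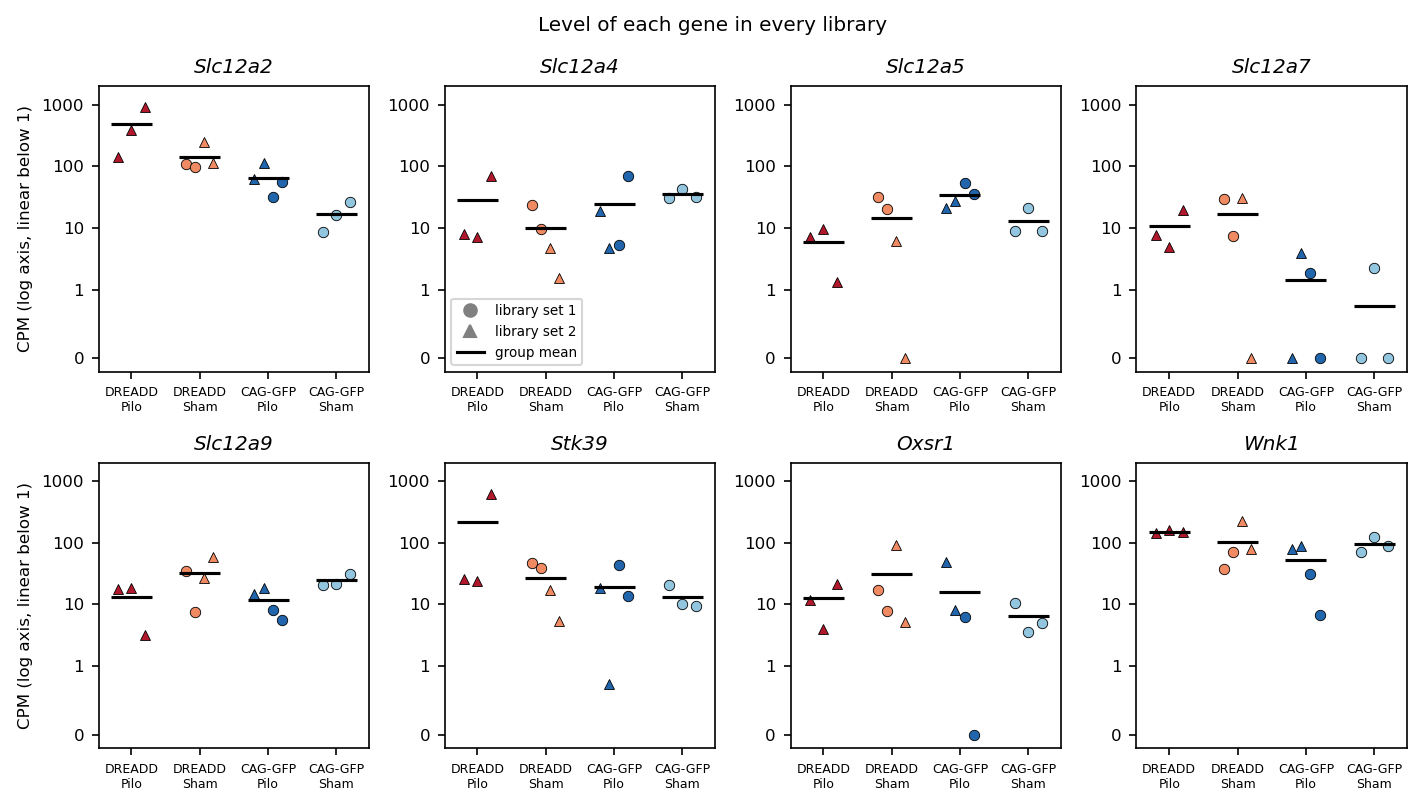
Level of each of the 8 genes in every library, in CPM on a log axis that is linear below 1, with library set 1 as circles, set 2 as triangles and group means as bars. For Slc12a2 the CAG-GFP Sham libraries (8.56 to 26.4 CPM) lie below all others; for Stk39 the DREADD Pilo mean rests on 1 library at 607 CPM.

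Slc12a5, the neuronal chloride extruder KCC2, had its highest levels in CAG-GFP Pilo. It stood at 7.01, 9.56 and 1.34 CPM in DREADD Pilo 1 to 3 and at 31.6, 20.6 and 6.13 CPM in DREADD Sham 1 to 3, and DREADD Sham 4 had no count, which allows up to 0.131 CPM (3 counts, counting error only). Its level was 20.98, 27.1, 53.8 and 36.1 CPM in CAG-GFP Pilo 1 to 4, and 8.85, 20.8 and 8.91 CPM in CAG-GFP Sham 1 to 3. Each CAG-GFP Pilo library lay above each DREADD Pilo library and each CAG-GFP Sham library, though CAG-GFP Pilo 1 (20.98 CPM) and CAG-GFP Sham 2 (20.79 CPM) nearly met, and DREADD Sham overlapped every other group. The log2 fold change was -2.53 ± 1.49 between DREADD Pilo and CAG-GFP Pilo and 1.42 ± 1.42 between CAG-GFP Pilo and CAG-GFP Sham (SE), the second about the size of its error. Between DREADD Sham and CAG-GFP Sham it was 0.18 ± 1.37, and between DREADD Pilo and DREADD Sham -1.28 ± 1.41 (SE). The last value had the opposite sign within library set 2, at 0.95 ± 2.00 (SE), where DREADD Sham 4 is at 0. Library set moved with Slc12a5 in both groups that span the sets. CAG-GFP Pilo had 53.8 and 36.1 CPM in set 1 and 20.98 and 27.1 CPM in set 2. DREADD Sham had 31.6 and 20.6 CPM in set 1 and 6.13 and 0 CPM in set 2. With library set as a covariate the value between DREADD Pilo, all in set 2, and CAG-GFP Pilo was -1.56 ± 1.37 (SE). Within set 2 it was -2.00 ± 1.93 (SE).

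Mature granule cell markers moved with Slc12a5. The 12 markers summed to 438 to 849 CPM in DREADD Pilo, 382 to 2404 CPM in DREADD Sham, 2045 to 6007 CPM in CAG-GFP Pilo and 860 to 1184 CPM in CAG-GFP Sham. The 6 libraries with at least 1887 CPM of these markers held 20.6 to 53.8 CPM of Slc12a5, and the 8 libraries at 1184 CPM or less held 0 to 20.8 CPM. Up to 4 of the 12 markers were at 0 in a library, and in DREADD Sham 4 these were Calb1, Dsp, Tdo2 and Icam5. The part of granule cell content in the Slc12a5 level was not tested.

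**Figure D2:**
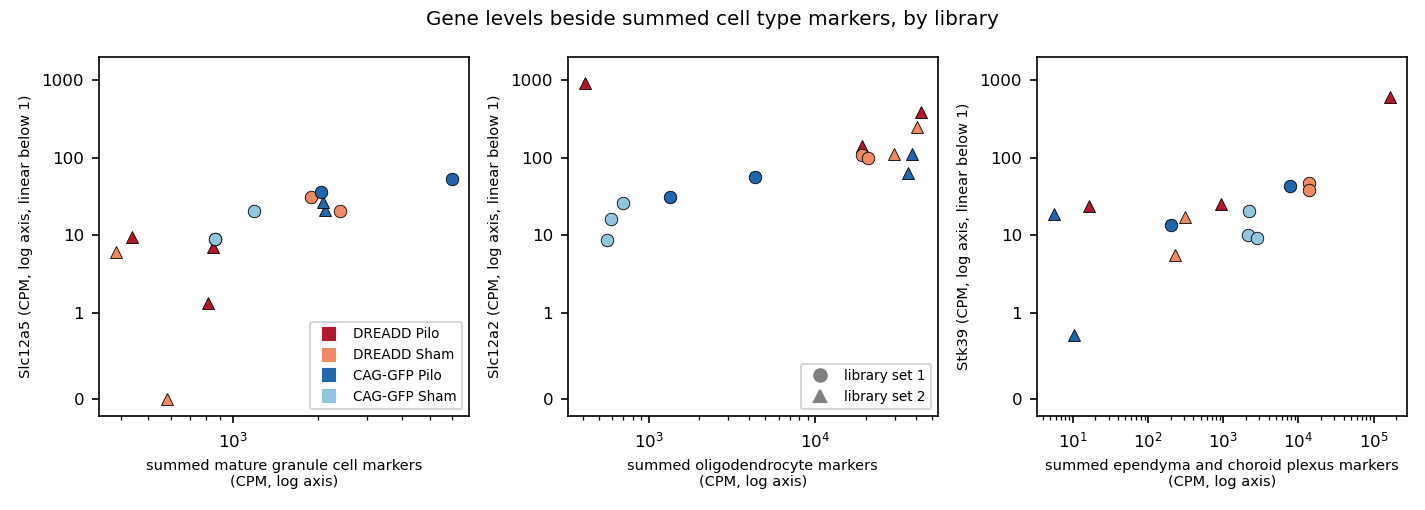
Slc12a5, Slc12a2 and Stk39 (CPM) against the summed markers of mature granule cells, oligodendrocytes, and ependyma with choroid plexus (CPM, log axes, vertical axis linear below 1), with 1 point per library, colours for groups and shapes for library sets. DREADD Pilo 3 stands apart at 410.2 CPM of oligodendrocyte markers with 919.9 CPM of Slc12a2, and at 165400 CPM of choroid plexus markers with 607 CPM of Stk39.

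The RNA of the chloride extruder relative to that of the importer was taken as the log2 ratio of Slc12a5 to Slc12a2 in each library. It was taken per exon length with 0.5 added to each count and does not depend on library scaling. The libraries held markers of several cell types, so the transcripts may come from different cells. The ratio is thus not a measure of chloride transport in granule cells. The part of cell types in the ratio was not tested. The log2 ratio was -3.77, -4.81 and -8.81 in DREADD Pilo 1 to 3 and -1.24, -1.71, -4.80 and -11.79 in DREADD Sham 1 to 4. The ratio was -1.04, -1.48, 1.32 and -0.08 in CAG-GFP Pilo 1 to 4, and in CAG-GFP Sham 1 to 3 it was 0.60, 0.91 and -1.01. Slc12a5 thus exceeded Slc12a2 per length in 3 of the 14 libraries, all with GFP alone. All 3 DREADD Pilo libraries lay below all CAG-GFP Pilo libraries, whereas CAG-GFP Pilo and CAG-GFP Sham overlapped and DREADD Pilo and DREADD Sham overlapped. The means were -5.80 ± 2.67 in DREADD Pilo, -4.88 ± 4.87 in DREADD Sham, -0.32 ± 1.24 in CAG-GFP Pilo and 0.17 ± 1.03 in CAG-GFP Sham (SDs over 3, 4, 4 and 3 libraries). The value of DREADD Sham 4 depends on the added count, since Slc12a5 had none there, and without that library the DREADD Sham mean was -2.58. In library set 1 alone, both DREADD Sham libraries lay below the 3 CAG-GFP Sham libraries. Library set moved with the ratio as well. CAG-GFP Pilo had 1.32 and -0.08 in set 1 and -1.04 and -1.48 in set 2. DREADD Sham had -1.24 and -1.71 in set 1 and -4.80 and -11.79 in set 2. All DREADD Pilo libraries were in set 2.

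**Figure D3:**
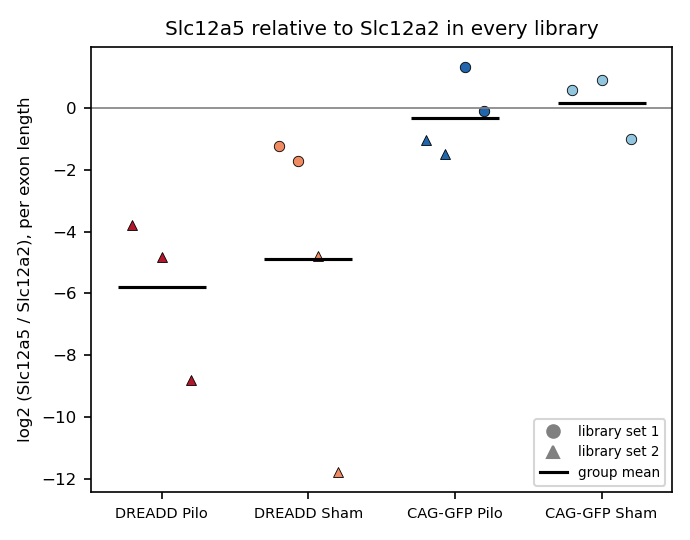
Log2 ratio of Slc12a5 to Slc12a2 per exon length in every library, with group means as bars, library set 1 as circles and set 2 as triangles. The DREADD Pilo libraries (-8.81 to -3.77) lie below the CAG-GFP Pilo libraries (-1.48 to 1.32). The ratio compares RNA in libraries that held markers of several cell types.

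The other potassium-chloride cotransporters did not share the Slc12a5 pattern. Slc12a4 (ENSMUSG00000017765.12, chromosome 8, 105943590 to 105966097, minus strand), which encodes the widely expressed KCC1, stood at 8.06, 7.04 and 68.6 CPM in DREADD Pilo 1 to 3 and at 23.5, 9.48, 4.79 and 1.57 CPM in DREADD Sham 1 to 4. In CAG-GFP Pilo 1 to 4 it stood at 19.1, 4.79, 5.23 and 70.3 CPM, and in CAG-GFP Sham 1 to 3 at 30.9, 42.1 and 31.9 CPM. All DREADD Sham libraries lay below all CAG-GFP Sham libraries, with a log2 fold change of -1.83 ± 1.16 (SE). Single libraries, DREADD Pilo 3 and CAG-GFP Pilo 4, set the upper end of their groups, and without CAG-GFP Pilo 4 the fitted difference between CAG-GFP Pilo and CAG-GFP Sham was -1.85 (log2), against -0.49 ± 1.15 (SE) with it. It had the opposite sign within library set 1, at 0.14 ± 1.07, and with library set as a covariate, at 0.30 ± 1.16 (SE). Slc12a4 shares 361 exon bases with Gm16156 on the opposite strand, and the strand setting of the counting is not given in the sources used here, so reads of both cannot be told apart there.

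Slc12a7 (ENSMUSG00000017756.8, chromosome 13, 73733094 to 73816754, plus strand), which encodes KCC4, was scarce in cells with GFP alone. It stood at 7.56, 4.87 and 19.8 CPM in DREADD Pilo 1 to 3 and at 29.3, 7.50, 30.6 and 0 CPM in DREADD Sham 1 to 4. CAG-GFP Pilo 2 and 3 had 3.87 and 1.83 CPM, CAG-GFP Sham 2 had 2.27 CPM, and CAG-GFP Pilo 1 and 4 and CAG-GFP Sham 1 and 3 had no count, which allows up to 0.0561 to 0.282 CPM by library. Every DREADD Pilo library lay above every CAG-GFP Pilo library, with a log2 fold change of 2.92 ± 2.39 (SE), while DREADD Sham overlapped CAG-GFP Sham through DREADD Sham 4, with 4.47 ± 2.80 (SE). Since 1 library carries all CAG-GFP Sham counts of the gene, this last value is not a measure of size.

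Slc12a9 (ENSMUSG00000037344.9, chromosome 5, 137314558 to 137333597, minus strand), whose human product is known to bind NKCC1 and lower its activity, stood at 17.5, 18.5 and 3.23 CPM in DREADD Pilo 1 to 3 and at 35.4, 7.63, 27.0 and 58.3 CPM in DREADD Sham 1 to 4. The CAG-GFP Pilo libraries 1 to 4 had 14.8, 18.3, 8.24 and 5.65 CPM, and the CAG-GFP Sham libraries 1 to 3 had 20.99, 21.1 and 31.4 CPM. All CAG-GFP Pilo libraries lay below all CAG-GFP Sham libraries, with a log2 fold change of -1.06 ± 0.87 (SE) and -1.86 ± 1.10 (SE) within library set 1. The log2 fold change between DREADD Pilo and DREADD Sham was -1.29 ± 0.91 (SE), and those groups overlapped.

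Among the kinases, Wnk1 (ENSMUSG00000045962.12, chromosome 6, 119923969 to 120038672, minus strand), the upstream kinase, was the steadiest in DREADD Pilo. It stood at 145.5, 163 and 147 CPM in DREADD Pilo 1 to 3 and at 38.04, 71.6, 228 and 79.4 CPM in DREADD Sham 1 to 4. Levels were 78.6, 90.1, 31.2 and 6.62 CPM in CAG-GFP Pilo 1 to 4, and 71.7, 125 and 87.8 CPM in CAG-GFP Sham 1 to 3. Each DREADD Pilo library lay above each CAG-GFP Pilo library, with a log2 fold change of 1.56 ± 0.76, and 0.86 ± 0.57 within library set 2 (SE). Library set moved with Wnk1 in both groups that span the sets: CAG-GFP Pilo had 78.6 and 90.1 CPM in set 2 and 31.2 and 6.62 CPM in set 1, and DREADD Sham had 79.4 and 228 CPM in set 2 and 38.04 and 71.6 CPM in set 1. The log2 value of Wnk1 between CAG-GFP Pilo and CAG-GFP Sham was -0.88 ± 0.76 over all libraries and -2.39 ± 0.77 within set 1 (SE).

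Stk39 (ENSMUSG00000027030.11, chromosome 2, 68210445 to 68472268, minus strand), which encodes SPAK, stood at 25.7, 24.1 and 607 CPM in DREADD Pilo 1 to 3 and at 47.4, 38.7, 17.1 and 5.48 CPM in DREADD Sham 1 to 4. In CAG-GFP Pilo 1 to 4 it stood at 18.7, 0.737, 43.0 and 13.7 CPM, and in CAG-GFP Sham 1 to 3 at 20.7, 10.0 and 9.33 CPM. The groups overlapped in all 4 pairings, and DREADD Pilo 3 alone lay above all other libraries. The log2 fold change was 3.52 ± 1.25 between DREADD Pilo and CAG-GFP Pilo and 3.01 ± 1.23 between DREADD Pilo and DREADD Sham (SE), and without DREADD Pilo 3 these were 0.35 and -0.16. The same library had 25.8% of its counts in mitochondrial genes, against 2.06% to 13.9% in the others, and 165400 CPM of choroid plexus and ependymal markers, with none of the 12 at 0, against 930.4 and 16.5 CPM in DREADD Pilo 1 and 2, which had 2 and 9 of them at 0. The transthyretin gene Ttr, which defines the choroid plexus, made up 150100 CPM of the sum in DREADD Pilo 3. The part of such cells in the Stk39 level was not tested.

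Oxsr1 (ENSMUSG00000036737.8, chromosome 9, 119238432 to 119322427, minus strand), which encodes OSR1, stood at 11.9, 4.03 and 21.6 CPM in DREADD Pilo 1 to 3 and at 17.2, 7.79, 92.4 and 5.27 CPM in DREADD Sham 1 to 4. In CAG-GFP Pilo 1 to 3 it stood at 49.2, 8.02 and 6.24 CPM, CAG-GFP Pilo 4 had no count, which allows up to 0.0561 CPM, and CAG-GFP Sham 1 to 3 had 10.7, 3.604 and 4.98 CPM. Oxsr1 overlapped between the groups in all 4 pairings. Its log2 fold change between DREADD Sham and CAG-GFP Sham was 2.25 ± 1.71 (SE), and 0.64 without DREADD Sham 3. Between CAG-GFP Pilo and CAG-GFP Sham it was 1.30 ± 1.65 (SE), and without CAG-GFP Pilo 1 it had the opposite sign, at -0.44.

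Across all genes tested, edgeR's quasi-likelihood test with Benjamini-Hochberg adjustment called 0 of the 8 genes at an adjusted p under 0.05 in each of the comparisons. It called 0.241% of 18676 genes between CAG-GFP Pilo and CAG-GFP Sham, 0.3% between DREADD Sham and CAG-GFP Sham, and 0% between DREADD Pilo and CAG-GFP Pilo, between DREADD Pilo and DREADD Sham and for the interaction. At an unadjusted p under 0.05 there was 1 of the 8 genes in each of the first 2 comparisons, against 15.4% and 18.6% of all genes, and 2 between DREADD Pilo and CAG-GFP Pilo and 2 between DREADD Pilo and DREADD Sham, against 5.36% and 5.18%. For the interaction there were 0, against 11.7%. The gene was Slc12a2 each time, with Stk39 as the second in both DREADD Pilo comparisons. DESeq2 called Slc12a2 between DREADD Sham and CAG-GFP Sham and between DREADD Pilo and CAG-GFP Pilo and no other of the 7 genes to which it gave an adjusted p; it gave Stk39 none in any of the comparisons. Over all genes it called 2884 and 231 in the 2 comparisons where it called Slc12a2. These counts describe the chosen genes and support nothing further.

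Libraries did not overlap between CAG-GFP Pilo and CAG-GFP Sham for 3 of the 8 genes, against 18.8% of all genes tested, with 2 above (6.55% of all genes) and 1 below (12.2%). Between DREADD Sham and CAG-GFP Sham this held for 2, against 21.7%, with 1 above (9.01%) and 1 below (12.7%). It held for 4 between DREADD Pilo and CAG-GFP Pilo, against 8.84%, with Slc12a2, Slc12a7 and Wnk1 above (5.69%) and Slc12a5 below (3.15%). It held for 0 between DREADD Pilo and DREADD Sham, against 6.61% (4.39% above and 2.23% below). The log2 fold change was above 0 for 5, 7, 6, 4 and 3 of the 8 genes in these 4 comparisons and the interaction, beside 58.6%, 61.1%, 58.4%, 52.3% and 42.8% of all genes. The median log2 fold change over the 8 genes was 0.71, 0.71, 0.86 and -0.05 in these 4 comparisons, beside 0.41, 0.53, 0.28 and 0.07 over all genes tested. For the interaction, which asks whether the seizure difference is the same in DREADD and CAG-GFP cells, the median was -0.21 over the 8 genes and -0.43 over all genes. The interaction was -0.18 ± 0.95 for Slc12a2, -2.71 ± 2.00 for Slc12a5, 2.50 ± 1.67 for Stk39, -2.59 ± 2.33 for Oxsr1 and 1.42 ± 1.07 for Wnk1 on the log2 scale (SE), and without DREADD Pilo 3 that of Stk39 was -0.65. The remaining 3 genes had 1.99 ± 1.63 (Slc12a4), -1.55 ± 3.33 (Slc12a7) and -0.23 ± 1.24 (Slc12a9).

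**Figure D4:**
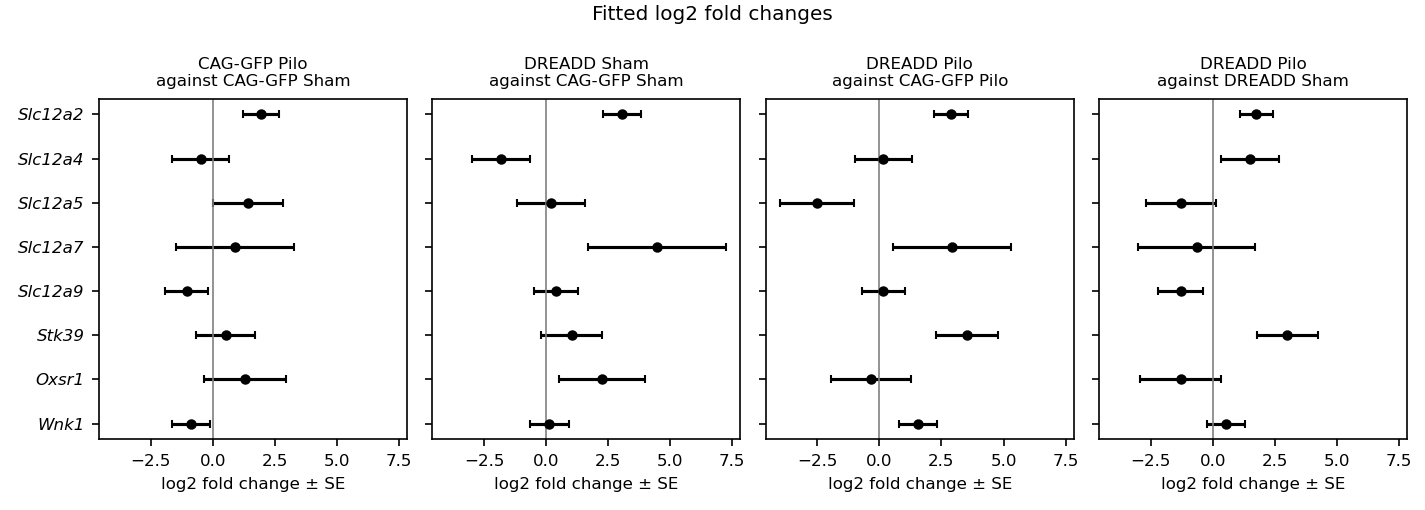
Fitted log2 fold change of each gene with its SE (bars) in 4 comparisons, first-named group over second-named group. Slc12a2 lies above 0 in all 4, from 1.76 to 3.07; Slc12a5 ranges from -2.53 to 1.42.

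Levels of different genes were compared per kilobase of annotated exon (CPM per kb). In DREADD Pilo, Slc12a2 (44.4 ± 36.4) and Stk39 (44.2 ± 67.8) had the highest means, followed by Wnk1 (6.65 ± 0.433) and Slc12a4 (6.52 ± 8.23), with Slc12a7 (0.849 ± 0.63) and Slc12a5 (0.802 ± 0.565) last (SD, n = 3). The places of Stk39 and Slc12a4 came from DREADD Pilo 3, and without it their means were 5.02 and 1.76, against 6.76 for Wnk1 and 3.58 for Slc12a9. In DREADD Sham, Slc12a2 (13.1 ± 6.64) came first, followed by Slc12a9 (6.39 ± 4.18), Oxsr1 (5.73 ± 7.75), Stk39 (5.48 ± 3.89) and Wnk1 (4.56 ± 3.69), whose means lay closer together than their SDs (n = 4). In CAG-GFP Pilo, Slc12a2 (6.00 ± 3.06), Slc12a4 (5.81 ± 7.25) and Slc12a5 (4.63 ± 1.92) came first and differed by less than their SDs (n = 4), and Slc12a7 (0.112 ± 0.146) came last. In CAG-GFP Sham, Slc12a4 (8.17 ± 1.45) came first, Slc12a9 (4.88 ± 1.19) and Wnk1 (4.16 ± 1.20) followed within their SDs, and Slc12a5 (1.73 ± 0.923) and Slc12a2 (1.56 ± 0.82) stood beside each other (SD, n = 3).

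The genes whose log2 CPM pattern was most like each of the 8 over the 14 libraries were ranked by Pearson correlation among 11455 genes with at least 5 CPM, as a description, since the libraries share sets and depths. Slc12a5 was most like Syn2 (r = 0.96), Syt13 (r = 0.96) and Calb1 (r = 0.94), which encode synapsin II, a synaptotagmin and the granule cell protein calbindin. Slc12a2 was most like Plekhb2 (r = 0.87), Cish (r = 0.87) and Trpm7 (r = 0.86), and Wnk1 was most like Sspn (r = 0.94), the growth factor receptor gene Fgfr2 (r = 0.93) and Serpinh1 (r = 0.92). Stk39 was most like the ciliary gene Ccdc39 (r = 0.86), with Vldlr (r = 0.84) and Ganab (r = 0.83) next. Oxsr1 was most like Coq10a (r = 0.93), the mitochondrial fusion gene Mfn2 (r = 0.93) and Foxred1 (r = 0.91). The highest values were 0.86 for Slc12a4 (Bag1, then Zfp467 and Usp53 at 0.83 each), 0.86 for Slc12a7 (Msrb3, then Pxylp1 at 0.84 and Nub1 at 0.83) and 0.88 for Slc12a9 (Mical1, then Ccl9 at 0.81 and Pdgfrb at 0.80). Over all these named genes rho ran from 0.53 (Stk39 with Ganab) to 0.93 (Slc12a2 with Cish). Among the 8 themselves, Slc12a2 and Slc12a5 had r = -0.35, and the highest value was 0.73, between Oxsr1 and Wnk1, whose Spearman rho was 0.25.

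Of 7 further cotransporter and WNK genes, Slc12a1 and Slc12a3, the kidney cotransporters, did not pass the filter, and none of the 5 tested passed the edgeR test in any of the comparisons. At an unadjusted p under 0.05 there was 1 of these 5, Wnk4, between DREADD Sham and CAG-GFP Sham, beside 18.6% of all genes, and 0 in the other comparisons. The smallest p of that list between CAG-GFP Pilo and CAG-GFP Sham belonged to Wnk4, Wnk2 and Wnk3, with log2 fold changes of 6.43 ± 3.24, -1.83 ± 1.08 and -1.59 ± 2.08 (SE). Wnk4 had no count in CAG-GFP Sham and 0 to 1.31 CPM in CAG-GFP Pilo, so its fitted value is not a measure of size.

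Of the sodium pump genes, whose pump sets up the gradients that the cotransporters use, Atp1b2, a beta subunit gene known in astrocytes, had a log2 fold change of -2.46 ± 0.57 between CAG-GFP Pilo and CAG-GFP Sham (SE), and Fxyd6, a pump regulator, had 3.00 ± 0.79 (SE). Neither passed (edgeR adjusted p = 0.104 and 0.172). Astrocyte markers summed to 786 to 6406 CPM in CAG-GFP Pilo, with 3 of the 12 at 0 in CAG-GFP Pilo 4, against 27760 to 29220 CPM and none at 0 in CAG-GFP Sham, and their part in these values was not tested.

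Of 29 genes for other chloride and bicarbonate routes, 27 were tested, and 1 fell and none rose between DREADD Sham and CAG-GFP Sham, beside 0.3% of all genes called in either direction. Slc4a4, a sodium bicarbonate cotransporter known in astrocytes, averaged 37.7 ± 16.1 CPM in DREADD Sham and 439 ± 66.1 CPM in CAG-GFP Sham (SDs over 4 and 3 libraries). Its log2 fold change was -3.54 ± 0.67 (SE, edgeR adjusted p = 0.0451), with all 4 DREADD Sham libraries lower. Astrocyte markers summed to 1973 to 4875 CPM in DREADD Sham, with none of the 12 at 0, against 27760 to 29220 CPM in CAG-GFP Sham, and their part was not tested. This call ended under 11 of 21 alternatives, with adjusted p from 5.56e-06 to 0.256, among them leaving out any 1 library of either sham group, CAG-GFP Pilo 1 or CAG-GFP Pilo 2. Between CAG-GFP Pilo and CAG-GFP Sham, Slc4a4 (-2.87 ± 0.65), Ttyh1 (-2.54 ± 0.60) and the chloride-proton exchanger gene Clcn3 (-1.59 ± 0.50) had the smallest p of the list (log2 fold change, SE), and none passed.

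None of 23 genes for regulators of the kinases and cotransporters passed the edgeR test in any of the comparisons, with 2, 4, 6, 1 and 2 at an unadjusted p under 0.05 in the 4 comparisons, in the order used for the medians, and in the interaction, beside 15.4%, 18.6%, 5.36%, 5.18% and 11.7% of all genes. Between CAG-GFP Pilo and CAG-GFP Sham the smallest p belonged to Ntrk2, Sgk1 and Klhl3. Ntrk2, the receptor for BDNF, a factor known to regulate KCC2, stood at 127 ± 67.9 CPM in CAG-GFP Pilo (SD, n = 4) and 1118 ± 69.8 CPM in CAG-GFP Sham (SD, n = 3), with the log2 value at -3.14 ± 0.68 (SE, edgeR adjusted p = 0.0847). Ntrk2 thus lay low where the astrocyte markers lay low, at 786 to 6406 CPM in CAG-GFP Pilo against 27760 to 29220 CPM in CAG-GFP Sham, and their part was not tested. Sgk1, a kinase known to act with the WNK pathway, stood at 251 ± 88.1 CPM in CAG-GFP Pilo (SD, n = 4) and 75.8 ± 21.3 CPM in CAG-GFP Sham (SD, n = 3), with the log2 value at 1.73 ± 0.62 (SE, edgeR adjusted p = 0.285). Klhl3, which targets WNK kinases for degradation, had no count in CAG-GFP Sham and 0 to 5.21 CPM in CAG-GFP Pilo.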

How the data were processed

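The authors deposited raw counts per gene, 1 column per library, as the whole numbers with unequal totals show. The build listed in the submitters' processing notes is hg38, which does not match the mouse identifiers, and the tools listed are edgeR, featureCounts (Subread), Bowtie2 and R 4.1.1. Annotation release, strand setting and filters: not given in the sources used here. Symbols, positions and exon lengths came from GENCODE M21 (GRCm38) by identifier without version (884 of 43346 unmatched).

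The 4 groups were fitted in 1 model over 14 libraries with edgeR 4.0.16 in R 4.3.3 (TMM factors, filterByExpr, quasi-likelihood test, Benjamini-Hochberg adjustment over 18676 genes, threshold 0.05). Log2 CPM used a prior count of 2. Pairs of libraries of a group differed beyond sampling noise (chi-square per degree of freedom 87.3 or more). Reads carry no molecular identifiers, so limits from a count of 0 (3 counts) cover counting error only. The fit was tested on simulated data, where it recovered 200 of 200 changed genes at low dispersion for CAG-GFP Pilo against CAG-GFP Sham. That dispersion lay below that of these libraries, whose biological coefficient of variation was 1.47. The recovery therefore does not show the power of the fit here. Alternatives were DESeq2 1.42.0, RLE factors, no filter, library set as a covariate or alone, the replicate block, only the groups compared, and each library left out.

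The genes, lists and tests were chosen with earlier results of these data known. Named were the 8 genes, list genes past the test, the 3 of each list with the smallest p between CAG-GFP Pilo and CAG-GFP Sham, and the 3 most correlated genes of each; some of these are not reported here. Slc12a1 and Slc12a3 were added after their values were seen. Of 4 promoter motifs searched, 3 were chosen first and the E-box after the windows had been read.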

Additional observations from a re-analysis of the deposited data

Results flagged for a closer look

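In 3 of 16 sets of 4 libraries tested over the 8 genes, 1 library stood far from the other 3 by Dixon's test. Chance flags about 5% of such sets where values are normally distributed. CPM values with this spread and with zeros need not be, so the 3 flags cannot be read as an excess over chance. Slc12a2 stood at 251 CPM in DREADD Sham 3 and at 98.7 to 113 CPM in the other DREADD Sham libraries. Oxsr1 stood at 92.4 CPM in DREADD Sham 3, above 5.27 to 17.2 CPM in the others, and at 49.2 CPM in CAG-GFP Pilo 1, above 0 to 8.02 CPM in the others. Both libraries belong to library set 2.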

How the results depend on the processing

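None of the 8 genes was called in the main fit, and under the alternatives the only one called was Slc12a2, with Stk39 not tested by DESeq2, which gave it no adjusted p. Between DREADD Sham and CAG-GFP Sham, 1 gene was called by DESeq2, with only the groups compared, and with libraries left out (0 to 1, the 1 without DREADD Pilo 3); DESeq2 also called 1 when DREADD Pilo was set against CAG-GFP Pilo. Its adjusted p ranged from 0.000421 to 0.408 in the first and from 0.0126 to 1 in the second. Over all genes, the calls between CAG-GFP Pilo and CAG-GFP Sham (45) became 2407 by DESeq2, 89 with library set as a covariate, 471 within set 1, 168 with only the groups compared and 1 with the replicate block, and 3 to 151 with 1 library left out. Between DREADD Sham and CAG-GFP Sham (56) they became 2884, 146, 530, 647 and 0 under the same settings, and 6 to 260 with 1 left out. Where the main fit called 0, DESeq2 called 231 for DREADD Pilo over CAG-GFP Pilo, 183 for DREADD Pilo over DREADD Sham and 1570 for the interaction. The covariate gave 2 for DREADD Pilo over DREADD Sham and 11 in the interaction, and the interaction had 3 without a filter and 0 to 1 with 1 left out. The cause was not tested. Of 824 fold changes of the 8 genes under alternatives, 43 had the opposite sign to the main fit, in 18 of 40 pairs of gene and comparison; for Slc12a2 this was so in the interaction only. RLE factors moved the median of all genes by up to 0.10 (log2). Replicate numbers did not pair the libraries: of 19 same-numbered pairs, 1 had deviations correlated over 0.1, and 1 library correlated best with its own number. With 1 library left out, the mean log2 ratio of Slc12a5 to Slc12a2 ran from -6.81 to -4.29 in DREADD Pilo, -6.10 to -2.58 in DREADD Sham, -0.87 to 0.07 in CAG-GFP Pilo and -0.21 to 0.75 in CAG-GFP Sham. With 3 or 4 libraries per group and a biological coefficient of variation of 1.47, the spread between libraries, not read depth, limits the precision.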

Other observations

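The log2 ratio of Stk39 to Oxsr1, per exon length and with 0.5 added to each count, differed widely between libraries. It was 1.22, 2.68 and 4.92 in DREADD Pilo 1 to 3, 1.58, 2.42, -2.32 and 0.17 in DREADD Sham 1 to 4, -1.28, -3.25, 2.89 and 10.63 in CAG-GFP Pilo 1 to 4, and 1.05, 1.58 and 1.01 in CAG-GFP Sham 1 to 3. All set 1 libraries lay at 1.01 or above, while set 2 libraries ran from -3.25 to 4.92, and the value of CAG-GFP Pilo 4 depends on the added count, since Oxsr1 had none there.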
